A study of Mus musculus with 4 samples.

Results

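Liver sinusoidal endothelial cells (LSECs) line the channels through which blood flows from the portal tract to the central vein of the liver lobule, and some of their genes are used more strongly at one end of that path. The genes described here are 7 such zonated genes: *Ltbp4*, *Ntn4*, *Adgrg6* and *Msr1* on the portal side, and *Kit*, *Cdh13* and *Fabp4* on the central side. They were chosen by name as genes of the portal and central ends of the sinusoid, and no measured value entered the rule. Earlier results of these data were, however, known when they were chosen. All 7 were found among the 21887 protein-coding genes with mm10 coordinates. The material was 2 H3K27ac ChIP-Seq libraries of mouse LSECs, replicate 2 and replicate 3, each given as its own list of peaks, and their input libraries were not analysed here. The sample records name no genotype, age, sex or treatment for the mice. Per the study's methods, LSECs came from perfused livers by selection with anti-CD146 beads. The general isolation protocol includes a brief culture, but the ChIP-Seq methods name only isolation and cross-linking. Whether the cells of these libraries were cultured is therefore not stated. Several mouse lines are named without saying which of them gave these libraries. There is thus 1 condition and no contrast between conditions, and every value below is a description without a test.

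Endothelial cells along the sinusoid meet falling oxygen and changing Wnt, Notch and flow signals, and portal and central LSECs differ in the adhesion molecules, receptors and secreted factors that they carry. H3K27ac, the acetylation of lysine 27 on histone H3, marks active promoters and active enhancers, so a peak near a gene's start and a peak deep in the gene or beside it mark different kinds of element. Both libraries pooled LSECs from the whole lobule. A weak peak can therefore mean few cells with the mark or little mark in each cell, and these cannot be told apart, nor can a peak be placed in portal or central cells.

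A peak was counted for a gene when it touched the gene body or the 10 kb on either side. It was called near an end when any of its bases lay within 1 kb of either end of the annotated gene, and distal otherwise. A shared region was a run of overlapping peaks that held at least 1 peak of each library. Peak height is given throughout as the fold enrichment over background that the peak caller reported at the summit, first in replicate 2 and then in replicate 3. Read depth behind the peaks is unknown, because the lists hold no read counts.

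Replicate 3 had 64498 peaks and replicate 2 had 26975, a ratio of 2.39, and a gene without a peak in replicate 2 may lie below what that list could show. In the regions shared genome-wide (24199) the median height was 10.5-fold for replicate 2 and 27-fold for replicate 3, and 97.1% of them were higher in replicate 3. Of 12 LSEC and endothelial marker genes, 8 had a shared region near an end and all 12 had a replicate 3 peak there. *Stab2*, *Clec4g*, *Mrc1* and *Tek* had it in replicate 3 alone. Of all protein-coding genes, 44.1% had such a shared region and 53.9% such a replicate 3 peak. A shared region near an end was present at 1 of 8 Kupffer cell and macrophage markers (*Cd68*) and 0 of 7 hepatocyte markers. The counts were 0 of 6 for stellate cell markers, 0 of 4 for mast cell markers and 0 of 4 for adipocyte markers. In replicate 3 alone, peaks near an end were added at *Apoa1* and *Apob* of hepatocytes, *Col1a1* of stellate cells and *Plin1* of adipocytes.

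Promoter windows were listed for 4 of the 7 members, and 1 window of each is shown because it carries the contrast at gene starts. The start of *Kit* was covered by a peak in both libraries. In replicate 3 only, a peak covered the start of *Ntn4* and 2 of the 3 listed starts of *Ltbp4*. The start of *Adgrg6* had no peak. Each window runs 5′ to 3′ in the direction of the gene, from 250 bases before the listed transcript start to 50 after it (RefSeq, GRCm38.p6). Capitals mark bases inside a peak, of replicate 2 for *Kit* and of replicate 3 for *Ntn4* and *Ltbp4*. The windows are chr5:75574737-75575036 (plus strand) for *Kit*, chr10:93640799-93641098 (plus strand) for *Ntn4*, chr7:27333599-27333898 (minus strand) for *Ltbp4* and chr10:14544987-14545286 (minus strand) for *Adgrg6*.
Kit: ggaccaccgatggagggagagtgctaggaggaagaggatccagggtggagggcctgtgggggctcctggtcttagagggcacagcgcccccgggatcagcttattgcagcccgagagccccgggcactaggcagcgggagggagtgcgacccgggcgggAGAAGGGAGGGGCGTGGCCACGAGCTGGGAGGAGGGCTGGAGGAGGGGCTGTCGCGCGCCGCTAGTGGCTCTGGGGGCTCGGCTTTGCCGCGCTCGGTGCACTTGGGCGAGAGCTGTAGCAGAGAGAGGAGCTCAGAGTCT
Ntn4: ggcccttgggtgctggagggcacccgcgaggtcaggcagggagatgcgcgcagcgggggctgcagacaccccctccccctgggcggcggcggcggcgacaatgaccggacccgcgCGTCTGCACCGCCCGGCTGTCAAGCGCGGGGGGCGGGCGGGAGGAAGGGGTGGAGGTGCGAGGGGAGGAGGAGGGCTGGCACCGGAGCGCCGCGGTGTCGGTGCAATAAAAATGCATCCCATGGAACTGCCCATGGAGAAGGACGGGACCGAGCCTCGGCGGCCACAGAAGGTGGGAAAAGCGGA
Ltbp4: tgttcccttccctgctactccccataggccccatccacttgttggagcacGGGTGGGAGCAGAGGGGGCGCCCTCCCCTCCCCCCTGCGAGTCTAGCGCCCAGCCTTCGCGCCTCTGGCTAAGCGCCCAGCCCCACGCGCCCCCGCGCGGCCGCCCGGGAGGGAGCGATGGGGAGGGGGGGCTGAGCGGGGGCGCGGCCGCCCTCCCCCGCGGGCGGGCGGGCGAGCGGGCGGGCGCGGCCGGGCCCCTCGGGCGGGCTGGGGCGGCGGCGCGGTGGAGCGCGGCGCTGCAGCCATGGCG
Adgrg6: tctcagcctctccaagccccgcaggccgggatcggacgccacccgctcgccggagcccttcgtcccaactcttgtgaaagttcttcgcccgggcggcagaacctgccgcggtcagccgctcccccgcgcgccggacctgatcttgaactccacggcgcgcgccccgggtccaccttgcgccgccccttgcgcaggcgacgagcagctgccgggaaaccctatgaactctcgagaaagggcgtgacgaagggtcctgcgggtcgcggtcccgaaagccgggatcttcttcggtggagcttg

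All 4 windows were rich in G and C. GC content was 69.0% for *Kit*, 72.0% for *Ntn4*, 80.3% for *Ltbp4* and 69.0% for *Adgrg6*, against a median of 52.7% over 32851 listed promoter windows. The *Ltbp4* window stood at the 99.1 percentile of GC content and held 39 CpG dinucleotides, where the median window held 7. The most upstream listed start of *Ltbp4*, at position 27337612, is not shown. Its window had no base inside a peak of either library, a GC content of 64.3% and 19 CpG dinucleotides. *Adgrg6*, with no peak at its start, held 38, *Ntn4* held 31 and *Kit* held 20. Short motifs were counted on both strands at every position, so that GC-box matches overlapping each other, as in the *Ltbp4* and *Ntn4* windows, count separately, and no match to one motif overlapped a match to another. The GC-box core GGGCGG occurred 7 times in the *Ltbp4* window, 4 times in *Ntn4*, 2 times in *Adgrg6* and 1 time in *Kit*, and 35.7% of all windows hold it. The ETS core GGAA was present in all 4 windows, as in 96.0% of all windows. Neither the GATA-type motif AGATAA, held by 11.2% of all windows, nor the TATA box TATAAA, held by 13.6%, was found in any of them.

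Over the 7 genes there were 32 peaks in replicate 2 and 75 in replicate 3, which gave 31 shared regions. Of these, 5 lay near a gene end and 26 were distal. No member had a region seen in replicate 2 alone, and 43 regions were seen in replicate 3 alone. Genome-wide, 226 regions were seen in replicate 2 alone and 40204 in replicate 3 alone, beside the 24199 shared regions. By number, distal peaks were the majority in both libraries, with 27 of 32 in replicate 2 and 66 of 75 in replicate 3. Genome-wide, 15212 of the 24199 shared regions, also the majority, lay away from the ends of protein-coding genes. That count is not of the same kind. It uses the ends of every protein-coding gene and includes regions outside gene windows.

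**Figure D1:**
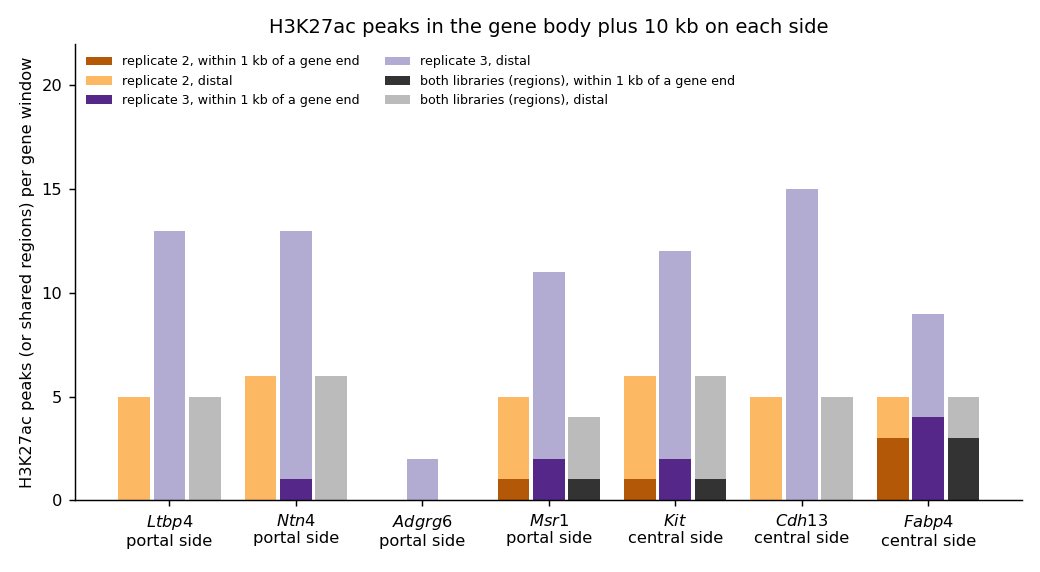
Number of H3K27ac peaks per gene window (gene body plus 10 kb on each side) in replicate 2 (orange), in replicate 3 (purple) and of regions shared by both (black and grey), with the dark part of each bar within 1 kb of a gene end. *Adgrg6* has 0 peaks in replicate 2 and 2 in replicate 3, while the other 6 genes have 5 or 6 and 9 to 15.

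Near the gene ends the members were close to the share of all genes. A shared region near an end was present at 3 of 7 members (*Msr1*, *Kit* and *Fabp4*), and at 44.1% of all protein-coding genes. In replicate 2 the count was also 3 of 7, against 43.4% of all genes, and in replicate 3 it was 4 of 7, against 53.9%, *Ntn4* being the addition. When only listed transcript starts were used, 2 of 4 members with such starts had a shared region within 1 kb, *Kit* and *Ltbp4*, and the share over all genes was 45.9%. Distal regions were read in the same way, and 6 of 7 members had at least 1 shared distal region, where 39.3% of all genes did. Long genes offer more room for such regions, and among genes of 50 kb or more the share was 53.1%, with 4 of the 5 members of that length (*Ntn4*, *Msr1*, *Kit* and *Cdh13*, but not *Adgrg6*).

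Length was taken into account gene by gene. *Ltbp4* had 5 shared distal regions in a gene of 34.6 kb, and 1.24% of the 5094 genes between 20 and 50 kb had at least as many. Without regions near an end of another gene, *Ltbp4* had 3. *Kit* had 5, a number reached by 5.17% of the 2516 genes between 50 and 100 kb. *Fabp4* had 2 in a very short gene, like 7.53% of genes under 5 kb, which had at least that number. *Ntn4* had 6, which 8.90% of the 1439 genes between 100 and 200 kb reached. *Msr1* had 3 and *Cdh13* had 5, and in each of their length classes 15.9% of genes had at least as many. *Adgrg6* had none, like 42.5% of genes of its length. The 2 sides overlapped: portal-side genes had 5, 6, 0 and 3 shared distal regions and central-side genes 5, 5 and 2.

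**Figure D2:**
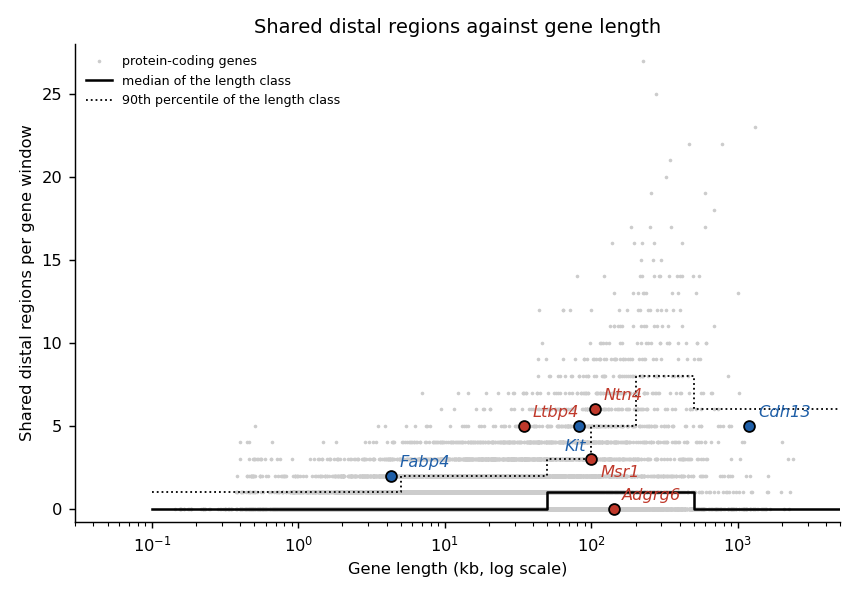
Shared distal H3K27ac regions per gene window (y axis) against gene length in kb (x axis, log scale) for all protein-coding genes (grey), portal-side members (red) and central-side members (blue), with the median (solid line) and 90th percentile (dotted line) of each length class. *Ltbp4*, *Ntn4* and *Kit* lie above the dotted line, *Fabp4* also lies above it, *Msr1* and *Cdh13* do not, and *Adgrg6* is at 0.

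*Kit*, the receptor tyrosine kinase for stem cell factor, had a shared region over its listed start. The region over its start, chr5:75574646-75575251, measured 7.46 in the replicate 2 list and 34.2 in that of replicate 3. The ratio of 4.59 between the libraries was the largest of all member regions. In replicate 2 this was a modest peak, at the 32.3 percentile of that list, and in replicate 3 it stood at the 85.4 percentile. The replicate 2 peak covered 141 of the 300 bases of the promoter window shown above and the replicate 3 peak covered all 300. The replicate 3 peak was 606 bp wide and the replicate 2 peak 231 bp, and when each peak had to cover 50% of the other, the region no longer counted as shared.

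Another 5 shared regions lay within the *Kit* gene body, and all of them were higher in replicate 3. The nearest to the start, chr5:75577919-75578506, measured 10.1 and 28.9. The tallest in replicate 2, chr5:75589308-75590278, measured 16.3 and 31.9. Together these made a group in the first part of the gene with chr5:75596291-75596948, which measured 6.08 and 12.8. Toward the far end, chr5:75640543-75641254 measured 14.2 and 27 and chr5:75650193-75650831 measured 9.49 and 21.6. In replicate 2 the gene body thus held 4 peaks taller than the peak at the start, whereas in replicate 3 the start was the tallest of the gene. Shared regions covered 4.10% of the *Kit* window, the 93.3 percentile among genes of 50 kb or more.

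*Fabp4* encodes a fatty acid-binding protein of the cytosol that is also abundant in fat cells and macrophages. Its region over the higher-coordinate end, chr3:10208166-10208938, measured 27.3 and 43.2. This was the tallest member region in replicate 2, at the 92.6 percentile of that list, and it stood at the 89.3 percentile in replicate 3. A pair of smaller shared regions lay inside the gene within 1 kb of an end. Values were 5.39 and 8.56 at chr3:10204786-10205193 and 5.11 and 15.9 at chr3:10207440-10207988. In the replicate 2 list this pair was weak, at the 5.52 and 4.57 percentiles. In this gene of 4.28 kb a further region between them, chr3:10205631-10206299, measured 6.71 and 13.8. One more lay in the flank at chr3:10211788-10212178, with 6.71 and 15.5. Shared regions covered 11.5% of the window, the 97.3 percentile of all genes, against a median of 1.20%. This rank was not matched for length, and the window of this short gene is 24.3 kb. The adipocyte markers listed above had no shared region near an end, and among macrophage markers *Cd68* alone had one.

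*Cdh13*, which encodes the lipid-anchored T-cadherin, had no peak near either end in either library. The gene spans 1184913 bp, and its 5 shared regions sat far inside it. The first, chr8:118393752-118394632, lay 254 kb from the lower-coordinate end and measured 17.9 and 59.3. At the 93.9 percentile of replicate 3, it was the tallest member region of that library. After a gap of 307 kb came a cluster of 4. Within the cluster, chr8:118713629-118714862 measured 15.1 and 28.2 and chr8:118785825-118786391 measured 15.6 and 20.3. The weaker pair, chr8:118701245-118701911 and chr8:118725915-118726328, measured 8.13 and 14.4, and 7.93 and 16.0. The second of this pair lies near an end of another annotated gene, *Gm22999*, and without it *Cdh13* had 4 shared distal regions. From the last region of the cluster 539 kb ran to the higher-coordinate end without a shared region. A replicate 3 peak at chr8:118679302-118679782 reached 22.5 without a counterpart in replicate 2, although 87.0% of the 2619 replicate 3 peaks within 10% of that height had one. Because of its length, *Cdh13* had 0.0415 shared distal regions per 10 kb, close to the median of 0.0432 for genes of 50 kb or more.

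**Figure D3:**
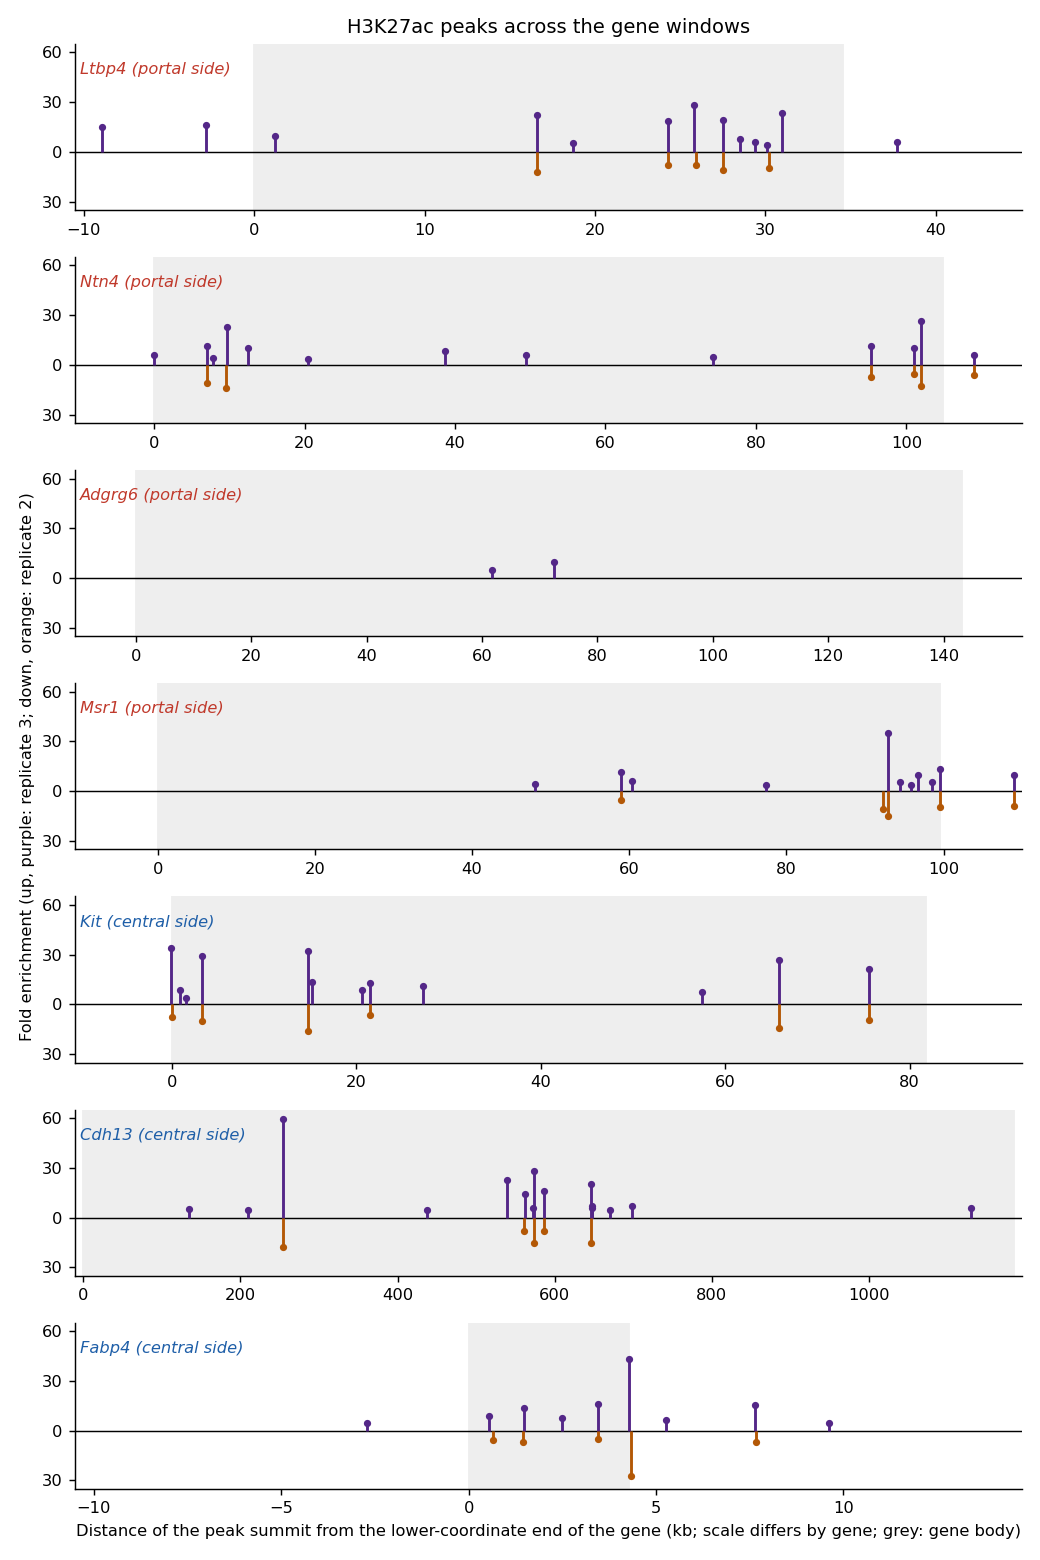
Fold enrichment of every H3K27ac peak in each gene window, replicate 3 upward in purple and replicate 2 downward in orange, against distance of the peak summit in kb from the lower-coordinate end of the gene (grey: gene body; the scale differs by gene). *Cdh13* carries its tallest peaks (17.9 and 59.3) 254 kb inside the gene, and *Fabp4* carries them (27.3 and 43.2) over an end.

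*Ltbp4*, a matrix protein that binds latent TGF-β, had 5 shared regions in its gene body and none near an outer end. The tallest in replicate 2, chr7:27321533-27321947, measured 12.2 and 22.2. The tallest in replicate 3, chr7:27330763-27331514, measured 7.93 and 28.0, and it lies near an end of the noncoding gene *Gm30543*, as does chr7:27329282-27329711 with 7.66 and 18.9. All 3 of its transcript starts listed by RefSeq lie inside the annotated gene. The shared region chr7:27332294-27333055, with 10.8 and 19.2, ended 593 bp from one of them. From the most upstream start, the nearest peak was 2.16 kb away in replicate 2 and 1.21 kb away in replicate 3.

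The remaining shared region of *Ltbp4*, chr7:27335183-27335453, ran the other way. It measured 9.49 in replicate 2 and 4.30 in replicate 3, and was the only 1 of the 31 member regions that was higher in replicate 2. Beside it, a replicate 3 peak at chr7:27335757-27336401 reached 23.5 with no replicate 2 peak over it, while 88.8% of the 2632 replicate 3 peaks within 10% of that height had one. This peak, too, lies near an end of *Gm30543*. The start whose window is shown above and the listed start at position 27333663 were covered by a replicate 3 peak only, chr7:27333324-27333848, at 7.49. With 0.916 shared distal regions per 10 kb, *Ltbp4* was at the 97.8 percentile of all genes. By the share of its window that shared regions covered, 4.82%, it was at the 81.9 percentile. The rank by number rests on all 5 regions. The count was 4 with listed starts in place of gene ends, and 3 without regions near an end of another gene.

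*Ntn4* encodes netrin-4, a secreted laminin-related protein of basement membranes. Its start carried a peak in replicate 3 only, chr10:93640914-93641488, at 6.19. That peak was at the 30.8 percentile of the replicate 3 list, and 5.49% of the 7427 replicate 3 peaks within 10% of its height had a replicate 2 peak. Its absence from replicate 2 was thus what most replicate 3 peaks of this height showed. Of the 6 shared regions, 2 were near the beginning of the gene: chr10:93647876-93648233 measured 10.8 and 11.6, and chr10:93650273-93651013 measured 13.6 and 22.8. After a gap of 85.2 kb, 3 more followed in the last part. The strongest of these was chr10:93742585-93743188, with 12.9 and 26.3, while chr10:93736245-93736575 measured 7.46 and 11.2 and chr10:93742029-93742338 measured 5.11 and 10.4. The flanking region chr10:93749187-93750152 was nearly equal in both libraries, at 6.10 and 6.21.

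*Msr1*, the class A scavenger receptor that takes up modified lipoproteins and is best known from macrophages, was the portal-side gene with a shared region near an end. That region, chr8:39642587-39643023, lay over the higher-coordinate end and measured 9.76 and 13.6. The strongest region, chr8:39635244-39636601, lay 6.15 kb inside the same end. It was a single replicate 3 peak of 1358 bp with a fold enrichment of 35.4, over which replicate 2 had separate peaks of 10.8 and 14.6. A region deeper in the gene, chr8:39601950-39602452, measured 5.42 and 11.4, and one in the flank, chr8:39651759-39652082, measured 8.81 and 9.77. Macrophage markers other than *Cd68* (*Clec4f*, *Timd4*, *Cd5l*, *Adgre1*, *Csf1r*, *Marco* and *Vsig4*) had no peak near an end in either library.

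*Adgrg6*, an adhesion G protein-coupled receptor, stood apart from the other members. No replicate 2 peak fell anywhere in its window of 163 kb. Replicate 3 had 2 peaks there, chr10:14464254-14464563 at 5.07 and chr10:14474760-14475241 at 10.0. The taller one was 69.8 kb from the listed start. Of the 5058 replicate 3 peaks within 10% of its height, 23.0% had a replicate 2 peak. H3K27ac at *Adgrg6* was therefore not detectable in replicate 2 at the threshold of that list, which does not show that it was absent.

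Agreement between the libraries was next read over all 31 shared regions. Of these, 30 were higher in replicate 3, or 96.8%, close to the 97.1% of all shared regions. The median fold enrichment was 9.49 and 18.9, against 10.5 and 27 genome-wide. The median ratio of replicate 3 over replicate 2 was 1.96 at the members, with a range from 0.453 to 4.59, and 2.47 over all shared regions. Regions away from protein-coding gene ends, which most member regions are, had a median ratio of 2.26 genome-wide, with heights of 8.81 and 21.2. Summits in the 2 libraries lay a median of 32 bp apart at the members and 30 bp apart genome-wide. Portal-side regions (15) had medians of 9.49 and 13.6 and central-side regions (16) of 8.81 and 21.0. The side medians were thus alike in replicate 2, and the central one was higher in replicate 3. By gene, the replicate 3 medians overlapped. They were 19.2 for *Ltbp4*, 11.4 for *Ntn4* and 12.5 for *Msr1*, beside 27.9 for *Kit*, 20.3 for *Cdh13* and 15.5 for *Fabp4*. Near an end lay 1 of the portal-side regions and 4 of the central-side regions. Regions of 1 gene are not independent, and no test was made.

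**Figure D4:**
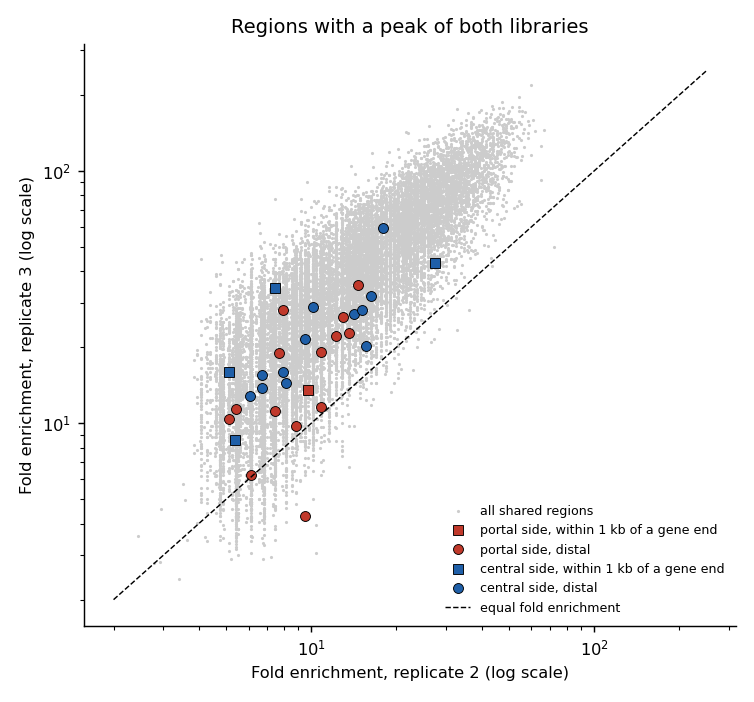
Fold enrichment of each shared H3K27ac region in replicate 3 (y axis) against replicate 2 (x axis), both on log scales, for all 24199 shared regions (grey) and for portal-side (red) and central-side (blue) member regions, squares within 1 kb of a gene end and circles distal. All member regions but 1, in *Ltbp4* (9.49 and 4.30), lie above the dashed line of equal fold enrichment.

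The 43 member regions seen in replicate 3 alone had fold enrichments from 3.53 to 23.5, with a median of 5.90, and the median of all such regions was 6.20. Near a gene end were 4 of the 43, and the matching share over all regions seen in replicate 3 alone was not counted. At *Kit* one such peak followed the start peak, at chr5:75575642-75575973 with 8.56. The others of the 4 were the *Ntn4* start peak and peaks at *Msr1* (5.54) and *Fabp4* (6.19).

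For setting, 10 further genes known to be zonated in liver endothelium were read in the same way. Of these, 6 had a shared region near an end and 8 had a shared distal region, beside 3 and 6 of the 7 members. The shares over all protein-coding genes were 44.1% and 39.3%. In replicate 2 itself, 5 of the 10 had a peak near an end, since the replicate 2 peaks at *Sox17* were all distal. On the portal side, *Efnb2*, a membrane ligand of Eph receptors in arterial endothelium, had 1 shared region near an end and 4 distal ones, with its tallest end peaks at 20.3 and 48.9. *Dll4*, a Notch ligand, had no shared region near an end, but a distal one at 17.1 and 23.0. *Jag1*, another Notch ligand, had end peaks of 11.0 and 17.3. On the central side, *Thbd*, the thrombomodulin gene, had end peaks of 18.9 and 47.9, and *Wnt2*, a Wnt ligand that acts on pericentral hepatocytes, had 6.10 and 17.2 with 4 shared distal regions. *Wnt9b* and *Rspo3*, which also feed Wnt signaling, had no shared region at all. All 5 of the further portal-side genes thus had at least 1 shared region, while among the members the gene without any, *Adgrg6*, was on the portal side.

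Lastly, each member was matched to the protein-coding gene with the most similar heights, by Euclidean distance over 4 values, log2(1 + highest fold enrichment) near an end and distal in each of the 2 libraries. The matches were *Tbxas1* for *Ltbp4* (distance 0.000177), *Bdkrb2* for *Ntn4* (0.0945), *Eef2k* for *Msr1* (0.176), *Hspa1a* for *Kit* (0.276), *Dnah10* for *Cdh13* (0.0164) and *Morf4l1* for *Fabp4* (0.147). *Adgrg6*, with 1 value above 0, was matched exactly by *BC048562*. With only 4 values per gene, such likeness is a description of peak heights and nothing more.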

How the data were processed

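H3K27ac ChIP-Seq peak lists of 2 mouse LSEC libraries were used. Per the labels, chromatin was sonicated and libraries were made with a ligation-type kit, whereas the study's methods describe a tagmentation-assisted protocol. The submitters' processing notes name the build mm10, BWA 0.7.17, MACS2 2.0.10, bedtools 2.27.1, Picard 1.67 and cutadapt 0.4.4. How each was set, how duplicates were removed and how the inputs entered are not given in the sources used here. Peaks were called by the authors in each library separately. The deposited columns hold a score, a fold enrichment (a ratio of pileup to background at the summit), the −log10 p-value, the −log10 q-value and the summit offset. The least significant peak had a q-value of 0.00907 (replicate 2) or 0.00981 (replicate 3), near a threshold of 0.01. Weaker peaks are therefore missing, and the list of the library with fewer peaks misses more.

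From these lists, peaks were assigned to 21887 protein-coding genes (RefSeq, GRCm38.p6), peaks that overlapped by at least 1 bp were merged into regions, and heights, widths and counts were taken, in Python 3.11.15 with numpy 2.4.6, pandas 2.3.3 and matplotlib 3.10.9. Percentiles of height are within a library's own list. The counting was tested on simulated data. Fold enrichments were not rescaled between libraries. All 7 members are named with their shared regions, and 1 gene of most similar heights is named for each. The other zonated genes and the cell type markers were fixed as lists. Members and lists were chosen with earlier results of these data known. Also tried were a stricter q-value of 1e-05, equal numbers of the strongest peaks, a reciprocal overlap of 50% and a distance of 2.5 kb. Windows with no flank or 50 kb, leaving out peaks near other genes' ends, and each library alone were tried too. Listed starts were used in place of gene ends for the 4 members that have them. There, *Msr1*, *Cdh13* and *Fabp4* kept their gene ends. No genome sequence was used, so peaks were not divided into exons and introns, and promoter sequences come from the RefSeq windows. With 2 libraries of 1 condition no test was made.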

Additional observations from a re-analysis of the deposited data

How the results depend on the processing

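The number of members with a shared region near an end was 3 and stayed within 1.5 times of that under every alternative run, with 3 to 4 when 1 library was used alone. With a reciprocal overlap of 50% it was 2, since the region over the start of *Kit* was no longer shared. The 5 shared regions near an end became 3 at the stricter q-value of 1e-05 and 3 with a reciprocal overlap of 50%, and ranged from 5 to 9 when either library was left out. The 26 shared distal regions became 17 with the reciprocal overlap and 40 with a window of 50 kb on each side, and ranged from 27 to 66 with 1 library alone. On the portal side the 14 distal regions became 9 with the reciprocal overlap, 9 with equal numbers of the strongest peaks and 24 with the 50 kb window, and ranged from 15 to 36 with 1 library. On the central side the 12 distal regions ranged from 12 to 30 with 1 library, and the other alternatives kept them within 1.5 times. The high values without replicate 2 follow from counting all replicate 3 peaks. At the stricter q-value the regions lost near an end were those of *Fabp4*, which went from 3 to 1. The replicate 2 peaks of its smaller end regions had −log10 q-values of 4.76 and 4.57, short of that cutoff. For the other moves, the cause was not tested. Of 48 such comparisons over the members, 37 stayed within 1.5 times and 11 did not, and of 133 for single genes, 111 did and 22 did not. A count of 0 that stayed at 0 was taken as within 1.5 times, as for most settings at *Adgrg6*. Counts without replicate 3 also had little room to move, because no member had a region seen in replicate 2 alone. These tallies are therefore not a measure of stability. No paired analysis was possible because there is 1 condition and the inputs that share the replicate numbers were not analysed here. Depth is unknown, and a region missing from replicate 2 may lie below its threshold.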
